A study of Oryctolagus cuniculus with 12 samples.

Results

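The combined treatment was compared with saline in the rabbit uterine body: 3 libraries of animals that had received lipopolysaccharide and cyclosporine A (LPS+CsA) were set against 3 libraries of saline-treated animals (Control). The members are therefore 6 of the 12 libraries of the series, chosen by their titles, and all genes with a level of at least 1 FPKM in at least 3 of these 6 libraries, which were 12325 of 17301. FPKM is the number of sequenced fragments scaled to the length of the transcript and to the size of the library.

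All animals were New Zealand White rabbits whose estrus and ovulation had been synchronised with eCG and hCG, so the Control animals carry that hormone treatment too. LPS+CsA animals received 4 mg/kg of LPS (serotype 055:B5) by infusion into the reproductive tract and 20 mg/kg of CsA into the muscle. Control animals received saline as the infusion and the vehicle of CsA, or saline, as the injection. The other groups were LPS alone and CsA alone, also with 3 animals each. The uterine body was collected 3 h into the treatment. According to the labels' different passages, it is unsettled whether the infusion went into the uterus or the vagina, which vehicle CsA had, and whether CsA followed the infusion by 3 h. No age is given for the animals.

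LPS, a glycolipid on the surface of Gram-negative bacteria, is sensed by the receptor TLR4, which switches on the transcription factor NF-kB and, through interferon regulatory factors, interferon-stimulated genes. Chemokines, adhesion molecules and the proteins that feed back on NF-kB are among its early targets. CsA binds cyclophilin A, and the complex blocks the phosphatase calcineurin, which T cells need to bring the transcription factor NFAT into the nucleus. The uterine body holds luminal and glandular epithelium, stroma, vessels, resident immune cells and a thick smooth muscle layer.

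The FPKM sum of the 6 libraries lay between 579986 and 747163, and between 12021 and 12398 genes reached 1 FPKM. Library totals in reads are not known; the authors' deposited tables give a read count for the genes they list, without saying whether it was scaled. Only 233 of the tested genes have a symbol, because symbols came from 2 tables of the authors, one on LPS against Control and one on LPS+CsA against LPS. Each of those tables uses either the Control or the LPS+CsA libraries analysed here, so the named genes were selected on the same animals and their differences are not independent evidence. The lists of smooth muscle, steroid response, B cell, mast cell, platelet, cytokine, Toll-like receptor and proliferation genes had no member with a symbol, so the tissue label could not be checked against smooth muscle or hormone receptor markers. PPIA, the cyclophilin A gene that every cell uses, was listed at 0, 13.0 and 0.359 FPKM in Control animals 1, 2 and 3 and at 10.8, 11.3 and 0.142 in LPS+CsA animals 1, 2 and 3. For Control animals 1, 2 and 3 its read counts in the authors' deposited table were 0, 101 and 2. A value at or near 0 is therefore reported only as a listed value.

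Control 3 and LPS+CsA 3 were the highest animals of their groups in the sums of inflammatory genes that follow. The summed FPKM of S100A8, S100A9 and S100A12, calcium-binding proteins abundant in neutrophils, was 8.68, 29.0 and 276 in Control animals 1, 2 and 3 and 191, 14.0 and 527 in LPS+CsA animals 1, 2 and 3. The summed FPKM of the 4 measured chemokines was 6.49, 10.2 and 98.4 in Control and 53.0, 28.8 and 121 in LPS+CsA, in the same order of animals. Control 3 was thus above 2 of the 3 LPS+CsA animals in both sums. In the first sum LPS+CsA 2 was far below the other LPS+CsA animals. In whole tissue, more cells of a type and more RNA per cell cannot be told apart. List medians are given with 1 library left out. For the chemokine, NF-kB, neutrophil, mucosal defence, guanylate-binding, plasma cell and immunoglobulin lists they are also given without both Control 3 and LPS+CsA 3.

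No gene passed an adjusted p of 0.05 between LPS+CsA and Control. Of 12325 genes, limma with Benjamini-Hochberg adjustment called 0 (0%), and the smallest adjusted p was 0.917. At an unadjusted p under 0.05 there were 604 genes (4.90%), beside 616.25 for an even spread of p. Of these, 445 (3.61%) were higher and 159 (1.29%) lower in LPS+CsA, a split of 73.7% to the higher side. Without Control 1 the split was 472 higher and 362 lower, 56.6% to the higher side. With median-of-ratios rescaling the split was 294 higher and 290 lower, and with quantile normalization 298 higher and 339 lower, so the excess of higher genes was not kept under either rescaling. The levels of all 3 animals of one group lay above all 3 of the other in 1231 genes (9.99%), 855 higher (6.94%) and 376 lower (3.05%) in LPS+CsA. Of these, 19 reached 1 FPKM in LPS+CsA animals only and 9 in Control animals only, so that the filter itself made them differ. Without those 28 the share was 9.78% of 12297 genes. With labels assigned at random, 3 against 3 libraries separate a gene with probability 0.1, so neither share is above that of random labels. Among the 233 genes with a symbol, 29 (12.4%) had an unadjusted p under 0.05 and 30 (12.9%) did not overlap; as they were selected on these animals, nothing is read from these shares. After median-of-ratios rescaling the genes without overlap were 566 higher and 615 lower, and after quantile normalization 536 and 660.

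**Figure D1:**
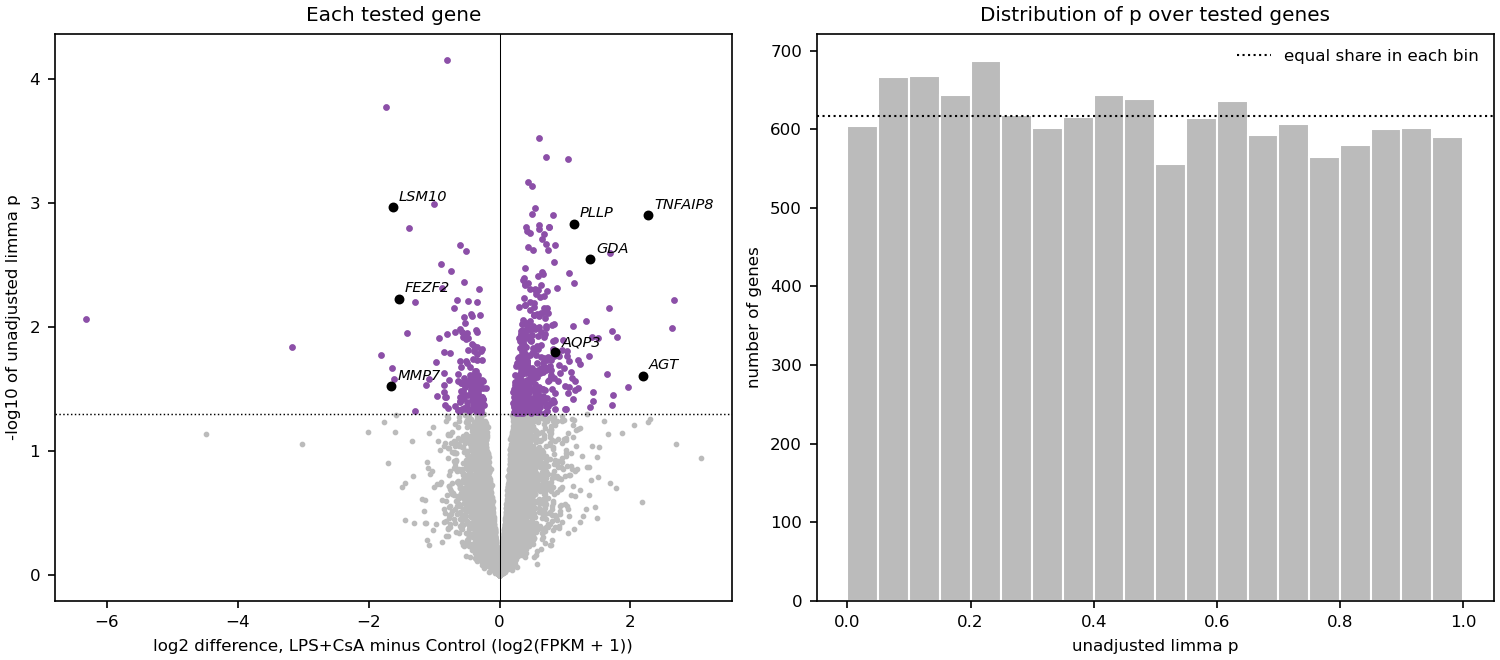
Left, each of the 12325 tested genes by its log2 difference (LPS+CsA minus Control, on log2(FPKM + 1)) and the −log10 of its unadjusted limma p, with genes under 0.05 in purple above the dotted line and 8 named genes in black. Right, the number of genes in 20 bins of unadjusted p, with a dotted line at an equal share per bin: the lowest bin holds 604 genes, close to the 616.25 of an equal share.

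The precision of the comparison can be read from the confidence intervals. On the log2(FPKM + 1) scale, the 95% interval of the difference lay wholly within a 2-fold change in either direction for 10373 genes (84.2%). The same held for 8085 of the 9179 genes with a mean of at least 5 FPKM (88.1%). For genes of low level, a 2-fold change on this scale is more than a 2-fold change in FPKM. The median distance from the estimate to the bound of its interval was 0.40 on the same scale. A group term accounted for 20.7% of the variance between the 6 libraries over all tested genes (exact permutation test, p = 0.4, where the smallest p that 3 against 3 allows is 0.1). Any split of the 6 libraries takes a share, and a fraction of 0.4 of the 10 splits took at least this much. The 20.7% is therefore not read as a share due to treatment. The median correlation between libraries across genes was 0.966 within Control, 0.961 within LPS+CsA and 0.960 between the groups. Leaving out LPS+CsA 3 brought 1 gene under an adjusted p of 0.05 and 960 under an unadjusted p of 0.05; a fit on the 6 libraries alone called 1 other gene.

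On the higher side, the 12 symbol-bearing genes of smallest p had unadjusted p between 0.00126 and 0.0228, with TNFAIP8 first. TNFAIP8 and ESPN were below 1 FPKM in every Control animal and passed the filter through LPS+CsA alone, so they had to differ, and nothing is read from their p or lack of overlap. Of the other 10, 7 did not overlap between groups, beside 9.99% of all tested genes. As these genes were picked by smallest p, nothing is read from that count. None of the 12 passed the adjusted threshold, at a limma adjusted p of 0.937 each. Of the 12, 10 had been listed by the authors in LPS+CsA against LPS and 2 in LPS against Control.

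TNFAIP8, an NF-kB-inducible regulator of cell death, was listed at 1.84e-07, 3.80e-05 and 5.10e-05 FPKM in Control animals 1, 2 and 3 and at 3.05, 2.98 and 5.88 in LPS+CsA animals 1, 2 and 3. It was also listed at 2.13, 1.44 and 0.00109 in the LPS animals and 0.305, 5.96e-06 and 3.00 in the CsA animals, so near-zero and clear values occurred side by side within those 2 groups. Its difference of 2.26 ± 0.52 (SE, as for every difference here) on the log2(FPKM + 1) scale rests on a Control group at or near 0, and no fold is given. The authors' deposited table of LPS+CsA against LPS gives it 21, 20 and 42 reads in the LPS+CsA animals. It was 1 of 2 genes below 0.1 FPKM in every Control animal and at 1 FPKM or more in every LPS+CsA animal; the other has no symbol, and no gene had the reverse pattern.

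PLLP, a tetraspan membrane protein of myelin and of epithelial apical membranes, measured 4.41, 2.80 and 2.23 FPKM in Control and 9.38, 7.27 and 7.15 in LPS+CsA (difference 1.13 ± 0.27, limma, unadjusted p = 0.00147). The lowest LPS+CsA animal was above the highest Control animal. SOX9, a transcription factor of uterine gland epithelium, measured 3.45, 4.09 and 3.35 in Control and 6.08, 4.57 and 7.27 in LPS+CsA, without overlap but with the closest animals only a little apart. ESPN, an actin-bundling protein of microvilli, measured 0.528, 0.635 and 0.464 FPKM in Control and 1.18, 2.37 and 1.13 in LPS+CsA. AQP3, a water and glycerol channel of epithelia, measured 0.837, 0.319 and 1.67 in Control and 2.64, 1.42 and 3.32 in LPS+CsA, and the groups overlapped.

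The enzymes on the higher side were GDA and STEAP3. GDA, guanine deaminase of purine breakdown, measured 1.90, 2.31 and 1.30 FPKM in Control and 4.02, 6.87 and 8.80 in LPS+CsA (difference 1.38 ± 0.36, limma, unadjusted p = 0.00283). It did not overlap, and with LPS alone it measured 0.783, 3.95 and 2.38. STEAP3, an endosomal ferrireductase of iron uptake, measured 1.78, 2.05 and 2.06 in Control and 2.74, 5.11 and 5.25 in LPS+CsA, again without overlap. The rest of the 12 were FAM83F, VWA2, UNC93A, BCL3 and ZFP62, with differences between 0.52 and 0.98.

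On the lower side, 5 of the 12 symbol-bearing genes of smallest p had an unadjusted p under 0.05. Of the 12, 5 did not overlap, beside 9.99% of all tested genes. As they were picked by smallest p, nothing is read from that count. None of the 12 passed the adjusted threshold. The authors had listed 9 of these 12 in LPS against Control and 3 in LPS+CsA against LPS.

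LSM10, a subunit of the U7 particle that processes histone messages, measured 12.7, 12.7 and 4.47 FPKM in Control and 3.81, 1.83 and 1.51 in LPS+CsA (difference -1.64 ± 0.37, limma, unadjusted p = 0.00109). In the LPS animals it measured 13.7, 17.8 and 19.3 and in the CsA animals 10.5, 6.17 and 10.9, so every animal of those 2 groups was above all LPS+CsA animals. The LPS+CsA values rest on few reads, 8, 5 and 4 in the authors' deposited table of LPS+CsA against LPS. FEZF2, a transcription factor known from forebrain and thymic medulla, measured 3.43, 5.50 and 2.68 in Control and 0.324, 0.545 and 1.10 in LPS+CsA (difference -1.54 ± 0.45, limma, unadjusted p = 0.00592). It did not overlap. ADAT1, a tRNA-editing deaminase, measured 1.87, 2.40 and 3.33 in Control and 1.67, 0.673 and 0.771 in LPS+CsA without overlap.

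MMP7, a metalloproteinase secreted by glandular epithelium, was the most abundant of these genes. It measured 1236, 958 and 655 FPKM in Control and 123, 278 and 722 in LPS+CsA (difference -1.66 ± 0.66, limma, unadjusted p = 0.0301). LPS+CsA 3 lay within the Control range, so the groups overlapped. IBSP, the matrix protein bone sialoprotein, was listed at 1.34, 6.60 and 12.6 in Control and at 1.41, 0 and 2.69 in LPS+CsA. C7orf31 and NECAB3, a calcium-binding protein, did not overlap, with differences of -0.59 and -0.38. ANLN (the cytokinesis protein anillin), PGER6, ZNF426, C3orf33 and NTNG1 (an axon guidance protein) overlapped and lay between -0.86 and -0.39.

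**Figure D2:**
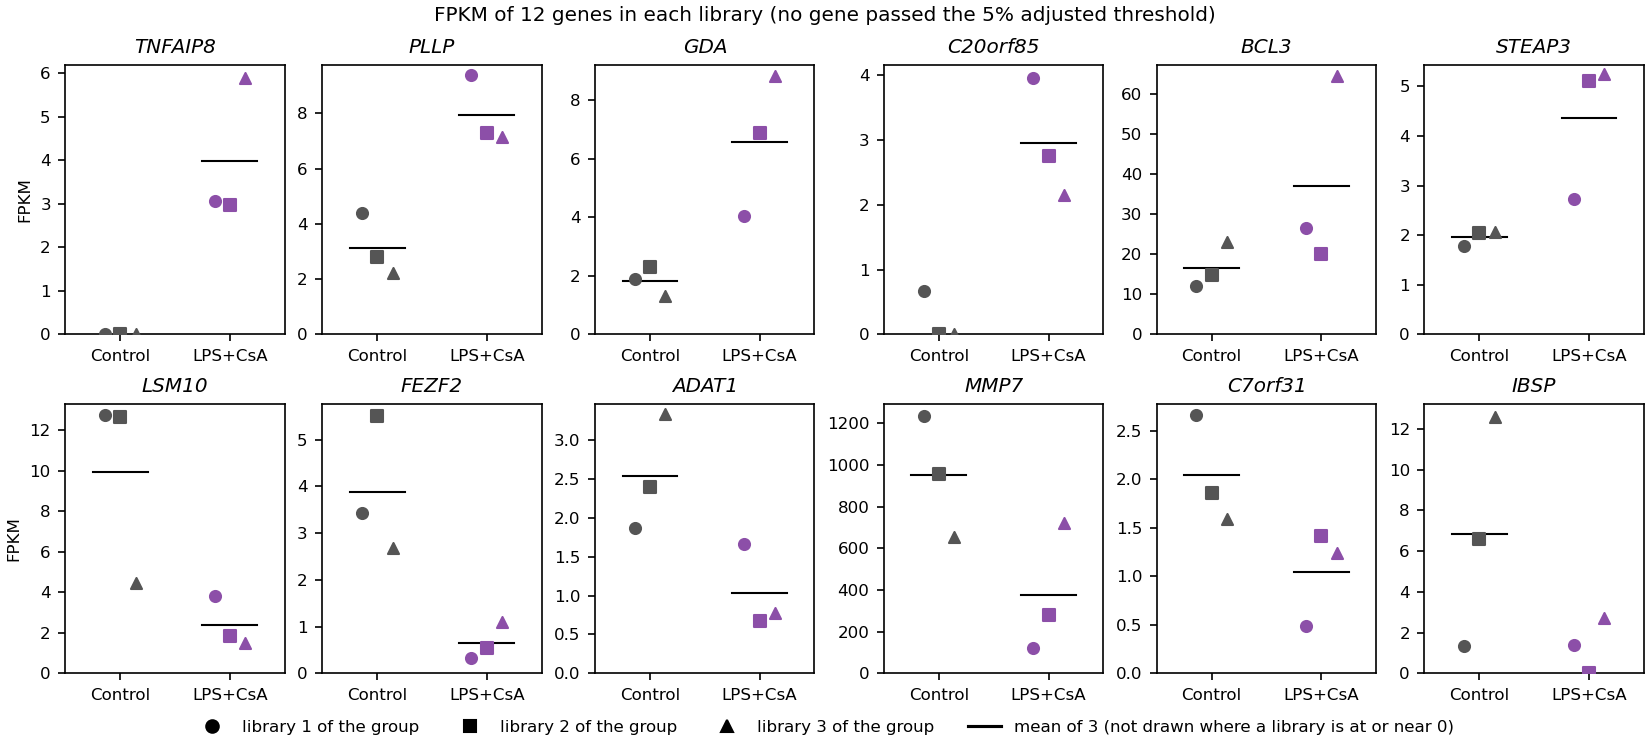
FPKM (vertical axis, linear, a scale per gene) of 6 genes higher and 6 lower by mean in LPS+CsA, with 1 marker per animal and a line at the mean of 3 where no animal is at or near 0. BCL3, MMP7 and IBSP overlap between the groups, TNFAIP8 and C20orf85 passed the filter through LPS+CsA alone, and none of the 12 passed the adjusted threshold.

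Genes without a symbol held the smallest p of the whole comparison. ENSOCUG00000024245 measured 22.1, 20.9 and 24.0 FPKM in Control and 12.5, 12.3 and 12.3 in LPS+CsA (difference -0.80 ± 0.13, limma adjusted p = 0.917). The 3 LPS+CsA animals were nearly equal and all below Control. ENSOCUG00000009991, annotated by the authors as a type 1 phosphatidylinositol 4,5-bisphosphate 4-phosphatase, measured 2.73, 3.64 and 4.56 in Control and was listed at 0, 0.0925 and 1.40 in LPS+CsA. It was listed at 0, 0 and 0.177 with LPS alone and at 0, 0 and 0 with CsA alone, so all 9 treated animals were below all Control animals; it is the gene called without LPS+CsA 3 (adjusted p = 0.0395). On the higher side, ENSOCUG00000024966 measured 12.6, 14.2 and 14.6 in Control and 21.1, 22.6 and 20.8 in LPS+CsA. ENSOCUG00000005045 measured 33.2, 37.2 and 28.8 in Control and 57.6, 44.7 and 62.2 in LPS+CsA, also without overlap.

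A few annotated genes without a symbol were chosen after their values were seen. ENSOCUG00000025147, annotated as liver carboxylesterase 2-like, an enzyme family that splits esters, measured 19.8, 18.1 and 17.5 FPKM in Control and was listed at 6.17, 0.0943 and 0.292 in LPS+CsA (difference -3.17 ± 1.09, limma, unadjusted p = 0.0144). The values of LPS+CsA 2 and LPS+CsA 3 are near 0, so no fold is given. It measured 1.89, 34.2 and 11.1 with LPS alone and 1.53, 0.717 and 21.6 with CsA alone, and LPS 1, CsA 1 and CsA 2 lay within the LPS+CsA range. ENSOCUG00000022742, annotated as 40S ribosomal protein SA, measured 42.6, 81.0 and 61.2 in Control and 127, 197 and 286 in LPS+CsA, without overlap. Ribosomal protein genes have many near-identical copies in mammalian genomes, so how reads were divided between them is uncertain. ENSOCUG00000022443, called when the 6 libraries were fitted alone (adjusted p = 0.00272), passed the filter through Control alone and was listed at 86.9, 145 and 71.0 in Control and at 0.779, 0 and 0 in LPS+CsA, but also at 0, 77.2 and 0 in LPS and 236, 99.9 and 0 in CsA.

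All 4 measured chemokines, of 33 on the list, had higher mean log2 levels in LPS+CsA than in Control, none at an unadjusted p under 0.05 and none without overlap. The median of the 4 differences was 1.05, beside 0.04 over all tested genes. CX3CL1, the membrane-bound chemokine of endothelium and epithelium, measured 3.78, 3.56 and 39.8 FPKM in Control and 23.3, 13.4 and 46.8 in LPS+CsA. CXCL10, an attractant of T cells, measured 2.15, 5.39 and 50.0 in Control and 25.3, 12.6 and 64.6 in LPS+CsA, with a 95% interval of the difference from -0.71 to 3.72. Both had Control 3 above the lower pair of LPS+CsA animals. CXCL11 differed by 0.68, and CXCL8, an attractant of neutrophils, measured 0.0816, 0.323 and 4.90 in Control and 1.25, 0.741 and 6.06 in LPS+CsA. With 1 library left out the list's median lay between 0.50 without Control 1 and 1.90 without Control 3, and it was 0.75 without LPS+CsA 3 and 1.54 without both; the difference of CXCL8 was -0.04 without LPS+CsA 3.

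The 6 measured genes of NF-kB feedback and survival, of 25 on the list, were also all higher by mean, though TNFAIP8 passed the filter through LPS+CsA alone. Of the other 5, BCL3 had an unadjusted p under 0.05 and none lacked overlap, and their median difference was 0.69. The median of all 6 was 0.84, with 1 library left out between 0.33 without LPS+CsA 3 and 1.15 without LPS+CsA 2, and without Control 3 and LPS+CsA 3 it was 0.69. BCL3, a nuclear member of the IkB family, measured 12.2, 14.8 and 23.0 FPKM in Control and 26.7, 20.1 and 64.6 in LPS+CsA. BIRC3, an inhibitor of apoptosis, measured 9.41, 12.1 and 39.0 in Control and 24.4, 21.1 and 78.8 in LPS+CsA. In both, LPS+CsA 2 lay below Control 3. TNFAIP3, the ubiquitin-editing brake on NF-kB known as A20, measured 3.15, 3.25 and 8.61 in Control and 5.68, 5.38 and 12.5 in LPS+CsA. SELE, the endothelial adhesion molecule E-selectin, measured 1.85, 1.65 and 1.42 in Control and 1.48, 1.86 and 9.92 in LPS+CsA, high in LPS+CsA 3 alone. TNFAIP2 differed by 0.42 and by -0.10 without LPS+CsA 3. In the authors' table of LPS+CsA against LPS all 4 chemokines and all 6 of these genes are on the higher side, so their direction here is not independent of the choice.

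The neutrophil list, S100A8, S100A9 and S100A12, had a median difference of 1.23 with all 3 above Control by mean, none at an unadjusted p under 0.05. S100A8 measured 4.46, 19.1 and 166 FPKM in Control and 129, 7.90 and 344 in LPS+CsA, so LPS+CsA 2 was within the lower Control pair while Control 3 exceeded LPS+CsA 1. With 1 library left out the median lay between 0.26 without LPS+CsA 3 and 2.46 without LPS+CsA 2. It was 2.45 without Control 3 and 1.48 without both Control 3 and LPS+CsA 3. These were 3 of the 20 genes on the list, and the part of neutrophils in the chemokine and NF-kB differences was not tested. All 3 are on the higher side of the authors' table of LPS+CsA against LPS, so their direction is not independent of the choice. ENSOCUG00000024425, annotated as permeability factor 2, a rabbit neutrophil chemokine, and chosen after its values were seen, measured 7.93, 14.6 and 94.5 in Control and 45.3, 14.6 and 80.6 in LPS+CsA.

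Interferon-stimulated genes lay near or below Control. Of 9 measured members among 46 listed, 8 were lower by mean and 1 (DDX60, a helicase) higher; none had an unadjusted p under 0.05, and the median difference was -0.21, between -0.49 without Control 1 and -0.037 without Control 2 with 1 library left out. All 9 are on the lower side of the authors' table of LPS against Control, and 5 of the 9 on the higher side of their table of LPS+CsA against LPS. ISG15, a ubiquitin-like modifier, measured 24.5, 93.8 and 59.1 FPKM in Control, 45.6, 27.5 and 34.0 in LPS+CsA, 18.8, 12.6 and 29.1 in LPS and 22.3, 212 and 686 in CsA. CsA 2 and CsA 3 were the highest of all animals, and LPS+CsA lay within the Control range. IFI44L, the member with the smallest p, measured 33.5, 63.8 and 41.5 in Control and 26.4, 34.7 and 26.5 in LPS+CsA (difference -0.61 ± 0.57, limma, unadjusted p = 0.311). The SE and p pool the spread within all groups, including CsA, which is outside this comparison. In FPKM, the SD of IFI44L was 77.3 in CsA, 15.7 in Control and 4.74 in LPS+CsA. That of ISG15 was 342, 34.7 and 9.16 in the same order. The lack of small p in this list is therefore not read as equal levels. USP18, the protease that removes ISG15, and IFIT3, OAS2 and OASL, antiviral effectors, differed by between -0.45 and -0.16. The summed level of the 9 genes was 169, 389.8 and 208 FPKM in Control and 225, 205 and 149 in LPS+CsA.

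The authors' annotation text, searched after the tables were seen, added genes without a symbol to this picture. A list of 5 interferon-induced genes was drawn from this text, including 1 annotated as receptor-transporting protein 4 and 1 as galectin-9, whose names do not mention interferon. All 5 were lower by mean, 1 without overlap (9.99% of all tested genes lacked overlap). Their median was -0.47, between -0.89 without Control 1 and -0.30 without Control 3. All 5 are on the lower side of the authors' table of LPS against Control. The 3 guanylate-binding proteins, GTPases induced by interferon gamma, were all higher by mean, with a median of 0.89 and none under an unadjusted p of 0.05. Their median lay between 0.41 without LPS+CsA 3 and 1.42 without Control 3, and was 0.94 without both. Their summed level was 16.4, 23.4 and 63.9 FPKM in Control and 48.0, 35.7 and 107 in LPS+CsA, with Control 3 above both lower LPS+CsA animals. The authors' table of LPS+CsA against LPS has all 3 on the higher side, so their direction is not independent of the choice.

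**Figure D3:**
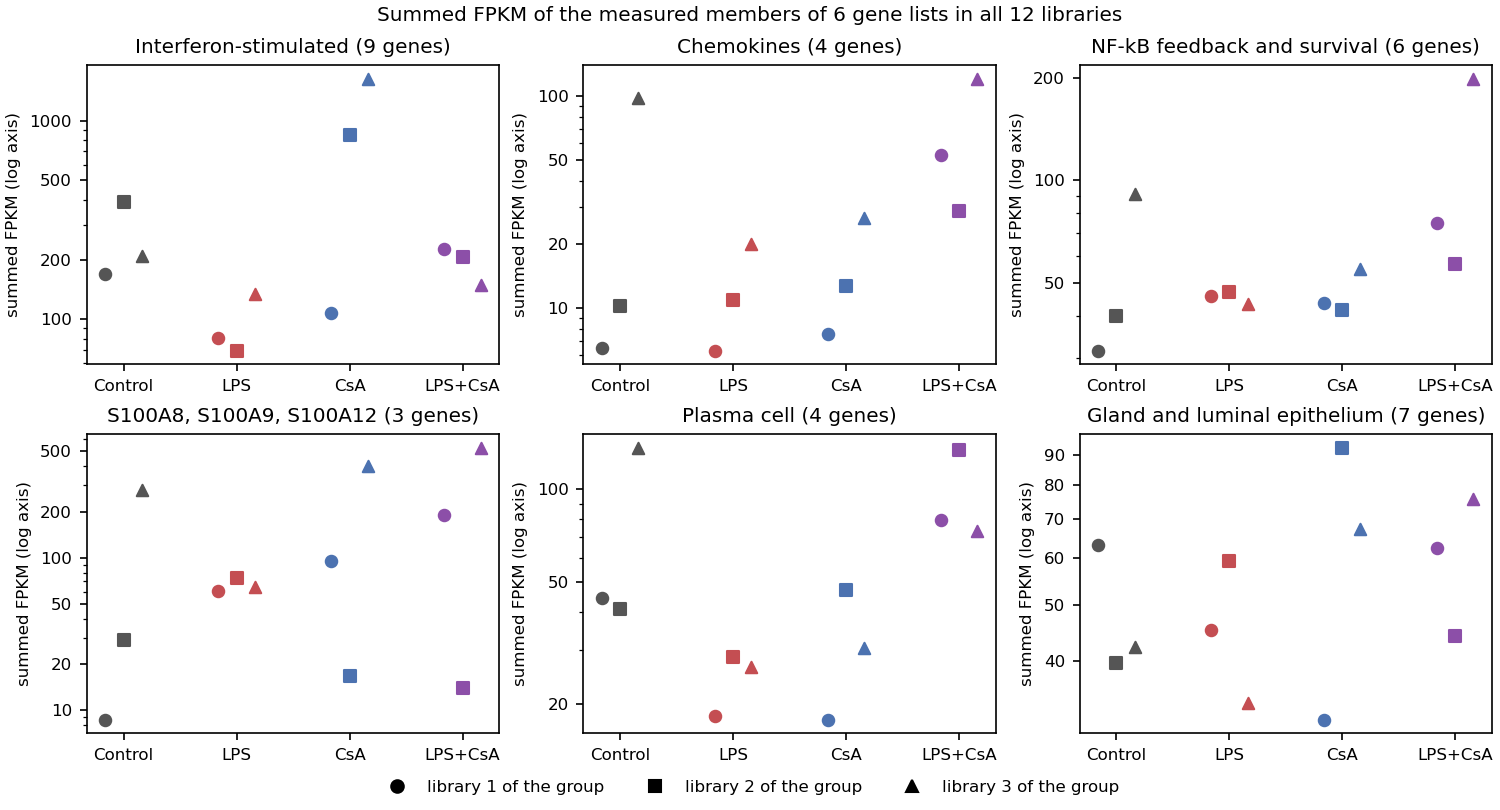
Summed FPKM (vertical axis, log scale) of the measured members of 6 gene lists in all 12 libraries, 1 marker per animal. In the chemokine panel Control 3, at 98.4, lies above LPS+CsA 1 and LPS+CsA 2; in the interferon-stimulated panel CsA 2 and CsA 3 are highest and LPS+CsA overlaps Control.

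Most measured genes of antibody-secreting cells were higher by mean in LPS+CsA. All 4 measured plasma cell genes, of 26 on the list, lay above Control, 1 (IGHM) at an unadjusted p under 0.05, with a median of 0.66. That median was 0.33 without LPS+CsA 2, 0.39 without Control 1, 0.89 without Control 3 and 1.07 without Control 3 and LPS+CsA 3. IGHM, the IgM heavy chain, measured 2.33, 3.56 and 5.02 FPKM in Control and 5.55, 13.2 and 4.00 in LPS+CsA (difference 0.78 ± 0.34, limma, unadjusted p = 0.0408), and the groups overlapped. JCHAIN, which joins IgM and IgA units, measured 31.12, 31.04 and 120.4 in Control and 65.7, 99.6 and 56.3 in LPS+CsA, with Control 3 the highest of the 6. DERL3 and MZB1, of the secretory endoplasmic reticulum, differed by 0.85 and 0.36, and MZB1 turned sign with 1 library left out. Of 10 immunoglobulin chains found by annotation text, 7 were higher and 3 lower by mean, none under an unadjusted p of 0.05, with a median of 0.53. The immunoglobulin median lay between 0.19 without Control 2 and 0.96 without Control 3, and was 1.05 without Control 3 and LPS+CsA 3. Reads of such similar chains may have been divided between genes. All 4 plasma cell genes and 8 of the 10 immunoglobulin chains are on the higher side of the authors' table of LPS+CsA against LPS. Their direction here is therefore not independent of the choice. TRAC, the constant region of the T cell receptor alpha chain and the only measured T cell gene, measured 2.54, 2.59 and 4.06 in Control and 5.36, 5.99 and 2.29 in LPS+CsA, with LPS+CsA 3 below every Control animal.

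Of the 7 measured gland and luminal epithelium genes, among 33 listed, 5 were higher and 2 lower by mean, 2 under an unadjusted p of 0.05 (PLLP and SOX9) and 3 without overlap (9.99% of all tested genes lacked overlap), with a median of 0.35. This median lay between 0.093 without Control 2 and 0.59 without LPS+CsA 2 with 1 library left out, and was 0.15 without LPS+CsA 3. In the authors' table of LPS+CsA against LPS, 4 of the 7 are on the higher side and 2 on the lower side. As the 7 have symbols only through the authors' tables of these animals, nothing is read from these counts. MAL, an apical sorting proteolipid, was the third without overlap, at 2.48, 2.95 and 2.28 FPKM in Control and at 3.54, 4.11 and 11.4 in LPS+CsA. The keratin KRT82 and the protease CTSE differed by 0.35 and 0.14, and the signal WNT11 by -0.33. Of 3 measured multiciliated cell genes among 30 listed, FOXJ1, the master transcription factor of motile cilia, was listed at 0.878, 0 and 0.342 in Control and at 3.09, 1.70 and 1.98 in LPS+CsA. C20orf85, known from ciliated airway cells, was listed at 0.668, 0 and 0 in Control and at 3.96, 2.76 and 2.15 in LPS+CsA. Both passed the filter through LPS+CsA alone, so nothing is read from their lack of overlap, and LPS 2 was higher than all of these animals in both, at 11.54 and 25.20. The third, TUBE1, a tubulin of basal bodies and centrioles, was lower by mean, at 34.7, 24.5 and 38.7 in Control and at 19.7, 25.9 and 24.4 in LPS+CsA, with overlap. The share of ciliated epithelium in each tissue piece was not tested.

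Stromal genes did not share a direction. Of 6 measured among 30 listed, 2 were higher and 4 lower by mean, none under an unadjusted p of 0.05, with a median of -0.10 (between -0.14 without LPS+CsA 1 and 0.24 without LPS+CsA 2). MEDAG, an adipogenesis gene, measured 23.1, 13.5 and 19.1 FPKM in Control and 34.6, 28.6 and 27.2 in LPS+CsA without overlap (difference 0.69 ± 0.33, limma, unadjusted p = 0.0565), and 55.9, 36.5 and 46.2 with LPS alone. CPXM2, a carboxypeptidase-like protein, measured 3.08, 4.50 and 4.60 in Control and 8.27, 15.4 and 5.10 in LPS+CsA, also without overlap. The BMP antagonist GREM1 and the transporter ABCA6 differed by -0.20 and -0.12.

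Among 5 measured vascular genes, of 23 listed, AGT, angiotensinogen, had an unadjusted p under 0.05. It measured 3.80, 1.20 and 3.32 FPKM in Control and 18.3, 48.0 and 3.56 in LPS+CsA (difference 2.19 ± 0.84, limma, unadjusted p = 0.0247), so LPS+CsA 3 was at the Control level and the other LPS+CsA animals far above it. The angiotensin receptors AGTR1 and AGTR2 differed by -0.50 and -0.56. EDN2, a vasoconstrictor peptide, and PTGIS, prostacyclin synthase, differed by -0.01 and 0.16. The list's median was -0.01, between -0.24 without Control 3 and 0.50 without LPS+CsA 3 with 1 library left out.

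DMBT1, a mucosal protein that binds bacteria, measured 5.72, 5.31 and 10.0 FPKM in Control and 30.5, 39.0 and 6.15 in LPS+CsA (difference 1.42 ± 0.61, limma, unadjusted p = 0.0397). As with AGT, LPS+CsA 3 was within the Control range. ACOD1, the itaconate-producing enzyme of activated macrophages, and CHI3L1, a chitinase-like protein, made up the rest of the mucosal defence and acute phase list, at 0.80 and -0.22. The median of these 3 was 0.80, between 0.30 without LPS+CsA 3 and 1.46 without Control 3, and it was 0.95 without both. The serum amyloid A-1 gene ENSOCUG00000021891, chosen after its values were seen, measured 41.6, 159 and 145 in Control and 54.4, 3.48 and 264 in LPS+CsA, with the widest range inside LPS+CsA.

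The remaining lists held few measured genes. Of 4 transport genes, AQP3, the phosphate transporter SLC34A2 and the channel partner KCNIP1 were higher and the lactate transporter SLC5A12 lower by mean, with a median of 0.62 and only AQP3 under an unadjusted p of 0.05. With 1 library left out that median lay between 0.43 without LPS+CsA 1 and 0.74 without Control 1. The glucocorticoid-responsive genes KLF15, a transcription factor, and PDK4, a brake on pyruvate use, differed by 0.04 and -0.16; KLF15 turned sign under both rescalings. KLF15 measured 26.8, 31.2 and 11.7 FPKM in Control, 31.2, 41.4 and 7.97 in LPS+CsA and 81.8, 49.7 and 36.3 in LPS. The 2 metallothioneins, metal-binding proteins, had a median of 0.64 (between 0.39 without Control 3 and 1.08 without Control 2). HBB2, a beta globin, and ALAS2, of erythroid haem synthesis, differed by -0.25 and -0.32, and the class II gene RLA-DRB1 by 0.07. CA9, a hypoxia-responsive carbonic anhydrase, differed by 0.52.

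**Figure D4:**
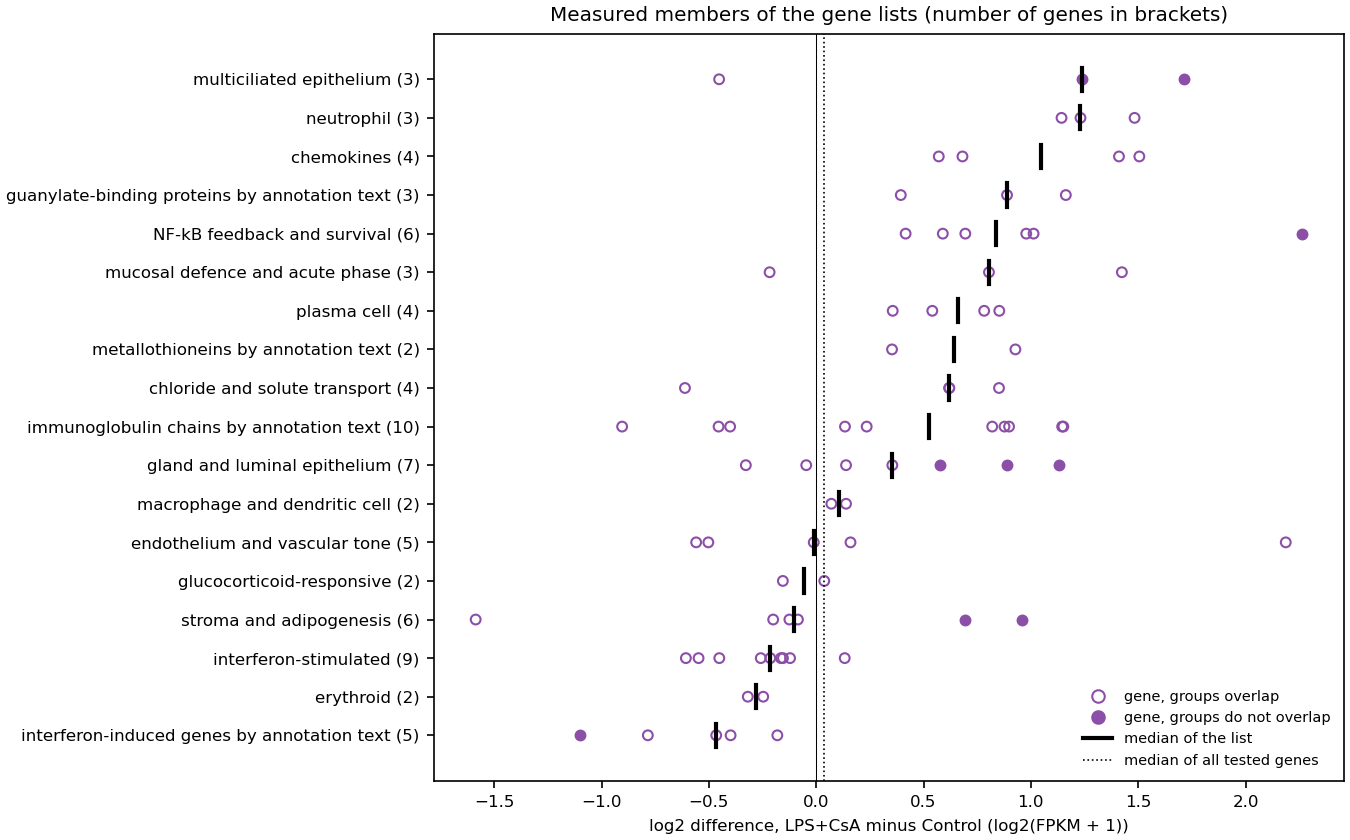
Log2 difference (LPS+CsA minus Control, on log2(FPKM + 1)) of each measured gene in the lists with 2 or more measured members, with filled points where the groups do not overlap (for TNFAIP8, FOXJ1 and C20orf85 the filter alone gives this), a thick line at each list's median and a dotted line at the median of all tested genes, 0.04. The chemokine median is 1.05 and the interferon-stimulated median -0.21.

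The differences of LPS alone and CsA alone from the same Control animals stand beside those of LPS+CsA for the leading genes; the 3 contrasts share the Control libraries, so no likeness between them is read. For PLLP the log2 differences were 1.13 in LPS+CsA, 0.26 in LPS and 0.58 in CsA. For LSM10 they were -1.64, 0.82 and -0.02 in the same order. For MMP7 they were -1.66, -1.25 and -1.39, and for AGT 2.19, 2.48 and 0.29. The medians of the interferon-stimulated list were -0.21 in LPS+CsA, -1.17 in LPS and 1.35 in CsA, and those of the chemokines 1.05, -0.44 and -0.18.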

How the data were processed

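Uterine body RNA came from 12 rabbits, 3 per group, 1 library per animal, so tests are against the spread between animals. Per the submitters' processing notes, the tools were TopHat2, an aligner, and Cufflinks with Cuffnorm, which estimate FPKM; their versions and the build are not given in the labels. The FPKM values were analysed as deposited. The authors deposited 2 comparison tables, one of LPS with Control and one of the combined treatment with LPS, which served here only for symbols, annotation text, which genes are listed and the read counts of 3 of them. Per the file headers, the authors' tables give a read count per library for the listed genes, made by a counting step that is not stated. Per the file headers, the authors also computed a log2 fold change for each listed gene. The authors' p-values in these tables come from a test that is not named in the headers. Symbols were paired with 303 of 437 identifiers there, of which 3 were read as current symbols of the names given, after the tables were seen. None of the identifiers was found in a reference table of 38822 genes.

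Values were analysed as log2(FPKM + 1). All 12 libraries entered 1 linear model of group means (limma 3.58.1, R 4.3.3; variance trend on intensity; two-sided tests), with Benjamini-Hochberg adjustment at 5% over 12325 genes (11335 with Ensembl identifiers and 990 loci that the authors assembled). Differences on this scale understate changes of low genes. Overall separation was tested with an exact permutation test over samples. The test was checked on simulated data. Python 3.11.15 with pandas 2.3.3 and matplotlib 3.10.9 made the summaries and figures.

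The members, gene lists and tests were chosen with earlier results of these data known. Named genes were those passing the adjusted threshold, the 12 of smallest p in each direction, the 5 largest and 5 smallest differences among genes without overlap, up to 6 members of each list, CXCL8, TRAC and PPIA, and 2 identifiers without a symbol per direction; others are said to be chosen after their values were seen. Of 26 lists by symbol, 14 had 2 or more tested members, 4 had 1 and 8 had none; 4 further lists came from annotation text, after the tables were seen. Alternatives were a pseudocount of 0.1, other filters, rescaling, variance settings, the replicate number as a block, leaving out each library, and leaving out Control 3 with LPS+CsA 3. Sequences are not analysed here, and 1 gene that the rule names is not reported here, though it stays in the fit and in its list's counts and median.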

Additional observations from a re-analysis of the deposited data

How the results depend on the processing

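Of the 24 alternatives, 22 called 0 genes at an adjusted p under 0.05, as did the analysis as reported; the 6 compared libraries alone called 1 (ENSOCUG00000022443) and leaving out LPS+CsA 3 called 1 (ENSOCUG00000009991), so the leave-one-out range was 0 to 1. An unadjusted p under 0.05 with at least a 2-fold change was met by 56 genes, 91 with a pseudocount of 0.1, 30 with a mean of at least 5 FPKM, 92 without Control 1, 116 without LPS+CsA 3 and 119 without Control 3 and LPS+CsA 3. Genes at an unadjusted p under 0.05 numbered 407 to 960 with 1 library left out (604 as reported). Genes without overlap numbered 1231 to 3124 with 1 library left out and 4240 without Control 3 and LPS+CsA 3, where fewer animals per group make overlap less likely. The deviations of same-numbered animals from their group means correlated at -0.05, 0.03 and 0.27, and the labels do not pair them; with the replicate block 0 genes were called and 738 had an unadjusted p under 0.05. The group term accounted for 20.6% to 21.1% of the variance in its alternatives with all 6 libraries. With 1 library left out it accounted for 23.5% to 29.6%, where fewer libraries raise the share that any split takes. No exact p below 0.1 is possible in these alternatives.

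Of 86 named genes, 68 kept their sign in every alternative that gave them a value and 18 turned in 1 or more; 46 had a value in all 24, and the other genes in 23, as a mean of at least 5 FPKM left them out; none of the 18 had been called and the cause was not tested. With array weights, the turned log2 differences were CXCL8 -0.070, MZB1 -0.025, RLA-DRB1 -0.067, ABCA6 0.016, EDN2 0.28, PDK4 0.12, ENSOCUG00000024425 -0.040. With median-of-ratios rescaling, KLF15 turned to -0.0037, and with quantile normalization to -0.0027. Without Control 3 and LPS+CsA 3, the turned log2 differences were SELE -0.045, CHI3L1 0.019, EDN2 0.57. With 1 library left out, the log2 differences of the genes that turned ranged ABCA6 from -0.33 to 0.088, AGTR2 from -1.28 to 0.036, CHI3L1 from -0.64 to 0.14, CXCL8 from -0.041 to 1.34, EDN2 from -0.77 to 0.90, ENSOCUG00000021891 from -2.66 to 0.28, GREM1 from -0.47 to 0.22, HBB2 from -0.57 to 0.18, KLF15 from -0.40 to 0.72, MZB1 from -0.059 to 0.78, OAS2 from -0.51 to 0.20, OASL from -0.46 to 0.040, PDK4 from -0.47 to 0.098, PTGIS from -0.17 to 0.50, RLA-DRB1 from -0.27 to 0.33, TNFAIP2 from -0.096 to 0.97.

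Library totals are not known, and read counts are given for listed genes alone. Genes under about 1 FPKM were not tested in the analysis as reported. The alternative without a filter on low values included them and called 0 of 16984 genes.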

Other observations

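A cluster of 8 loci that the authors assembled on the scaffold GL019111 stood out in 2 animals of different groups, LPS 1 and LPS+CsA 1, and was chosen after its values were seen. Their summed FPKM was 261, 435 and 290.4 in Control animals 1, 2 and 3, 2132, 266 and 503 in LPS, 273, 339.9 and 287 in CsA and 1841, 289 and 571 in LPS+CsA. These 2 animals were thus above every other animal. Rabbit_newGene_7239, which spans positions 92575 to 165060 on the plus strand of that scaffold in the deposited annotation (build not given), measured 5.42, 31.2 and 49.3 in Control and 309, 68.2 and 114 in LPS+CsA. Rabbit_newGene_7244, on the minus strand from 92518 to 165235, overlaps it and measured 224, 325 and 139.6 in Control and 1136, 149.9 and 354 in LPS+CsA, so reads of the pair may be shared between them.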
